A study of Homo sapiens with 4 samples.

Results

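The MYC, MAX and MXD network is a set of transcription factors that pair with one another and share a DNA site. Its 10 genes studied here were MYCN, MYC, MYCL, MAX, MXD1, MXD3, MXD4, MXI1, MNT and MGA, and they were chosen by name, with earlier results of these data known. They are 10 of the 18244 genes that had a probe set annotated to them alone on the array, and they were covered by 41 of 45278 such probe sets. Gene expression was measured in Kelly cells, a long-established human line grown from a neuroblastoma, in which MYCN is amplified and the ALK receptor kinase is mutated. Every array came from a derivative of the line resistant to TAE684, an ALK inhibitor, and grown with 1 µM of it. The shBORIS group (2 arrays) carried a short hairpin RNA against BORIS, and the shLUC group (2 arrays) a hairpin against luciferase, which served as the control. Both had 24 h of exposure to virus and 48 h of puromycin selection, and the labels call the 2 samples of a group biological duplicates. BORIS is encoded by CTCFL, the testis-expressed relative of the insulator protein CTCF. The labels name 1 hairpin against BORIS and 1 resistant line, and they do not say whether that line is a clone or a mixed population.

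MYC, N-Myc (the protein of MYCN) and L-Myc (of MYCL) bind DNA as dimers with MAX, mostly at the E-box CACGTG, and raise transcription there by bringing histone acetyltransferases and elongation factors. MXD1, MXD3, MXD4, MXI1 and MNT also dimerise with MAX at E-boxes, but bring the SIN3 and histone deacetylase corepressor, and so oppose the MYC proteins. MGA, the largest of the family, pairs with MAX within a Polycomb complex. In neuroblastoma, extra copies of MYCN mark aggressive disease, and N-Myc is commonly the main MYC protein where MYCN is amplified.

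E-boxes lie in the promoters of some of the members themselves. RefSeq promoters (GRCh38.p14) were found for 9 members, as 14 windows of the 250 bases before a start site, and CACGTG, which reads the same on both strands, was in the windows of 2 members, MXD4 and MNT. Over all genes with a window, 7.73% held it. The match lay 238 bases before the MXD4 start and 193 bases before the MNT start, counted to its first base. Both sequences are shown because they hold the network's own site, and that of MYCN because it is the amplified member. Capitals mark CACGTG, which the MYCN window does not hold.
MXD4 promoter, chr4:2262110-2262359, minus strand: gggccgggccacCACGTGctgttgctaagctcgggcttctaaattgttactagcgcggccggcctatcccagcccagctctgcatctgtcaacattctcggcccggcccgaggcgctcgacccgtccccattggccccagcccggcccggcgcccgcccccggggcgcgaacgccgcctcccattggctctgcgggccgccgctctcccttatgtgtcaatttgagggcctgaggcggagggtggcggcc
MNT promoter, chr17:2401061-2401310, minus strand: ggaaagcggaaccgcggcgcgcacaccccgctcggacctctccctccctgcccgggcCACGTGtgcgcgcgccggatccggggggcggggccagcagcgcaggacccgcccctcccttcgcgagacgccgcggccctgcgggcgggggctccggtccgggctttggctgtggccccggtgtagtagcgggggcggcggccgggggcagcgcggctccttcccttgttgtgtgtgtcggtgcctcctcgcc
MYCN promoter, chr2:15940300-15940549, plus strand: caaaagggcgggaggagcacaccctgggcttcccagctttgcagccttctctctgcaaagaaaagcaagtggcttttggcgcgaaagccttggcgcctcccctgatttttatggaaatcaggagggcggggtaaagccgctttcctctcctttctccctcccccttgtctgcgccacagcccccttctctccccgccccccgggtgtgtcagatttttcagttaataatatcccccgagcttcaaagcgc

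How the members moved depends on what they are set against, since most transcripts were brighter on the shBORIS arrays. The median gene of the 10946 tested differed by 0.48 on the log2 scale as deposited. This shift grew with brightness, with a median of 0.32 in the dimmest decile of the genes tested and 0.62 in decile 9, and was 0.46 in the brightest decile. How the arrays were brought to 1 scale is not stated in the labels or notes at hand. The synthetic ERCC probe sets had medians of 25.5 and 25.8 on the shBORIS arrays, against 24.8 and 24.4 on the shLUC arrays. These medians lie near those of the array's background probe sets, 15.4 to 16.9, so the medians alone say little about a shift. Of the 100 ERCC probe sets, 15 were brighter on both shBORIS arrays than on both shLUC arrays, and 19 were dimmer. The brighter ERCC probe sets were not examined on their own, and what the set says about the shift was not tested. The 18 probe sets of the bacterial and phage hybridisation controls (bioB, bioC, bioD and cre), which do not come from the cells, were all brighter on both shBORIS arrays, with medians of 1061 and 1089 against 794 and 698 on the shLUC arrays and a median log2 difference of 0.49. Their part in the shift of the cellular genes was not tested. Members are therefore given on 3 scales, as deposited, against the median gene, and against genes of like brightness, for which each array was fitted to the mean array by a smooth curve over the level. Fewer cells of a kind and less RNA per cell cannot be told apart in such bulk samples.

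The target of the hairpin, CTCFL, had intensities of 701 and 737 on the shBORIS arrays, against 3563 and 3376 on the shLUC arrays, and fell by 2.72 against the median gene (limma adjusted p = 7.89e-10). Log2 values of replicate arrays correlated at 0.9967 for shBORIS and 0.9963 for shLUC over the genes tested, and at 0.9594 to 0.9606 between the groups; genes are not independent replicates. All 9 neuroblastoma markers with a probe set of their own were above the brightness limit for testing, with summed intensities of 19487 and 20148 on the shBORIS arrays, against 14163 and 13335 on the shLUC arrays. Of these 9 markers 5 rose and 0 fell as deposited, where 77.2% and 4.64% of all genes did. Against the median gene 2 of them rose and 6 fell, where 30.3% and 28.8% of all genes did. Of the markers of other cells, 2 of 4 Schwann and glial, 2 of 6 fibroblast, 1 of 4 endothelial, 1 of 4 immune and 0 of 4 epithelial markers were above it. The fibroblast markers summed to 872 and 944 on the shBORIS arrays, against 1052 and 1104 on the shLUC arrays. Of the 2 above the limit, COL1A1 fell and PDGFRB rose as deposited, and 1 fell and 0 rose against the median gene. The part of these markers in the results was not tested.

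As a group, the members lagged behind most other genes in shBORIS cells. On the deposited scale 4 of the 9 members tested rose (MAX, MXD3, MNT and MGA) and 0 fell, where 77.2% of all genes tested rose and 4.64% fell. Against the median gene 1 rose (MXD3) and 6 fell (MYCN, MYCL, MXD1, MXD4, MXI1 and MNT), where 30.3% of all genes rose and 28.8% fell. Against genes of like brightness 1 rose (MXD3) and 7 fell, the same 6 and MAX, where 27% of all genes rose and 28.1% fell. The median member differed by 0.15 as deposited, by -0.33 against the median gene and by -0.21 against genes of like brightness, while the median of all genes tested was 0.48, 0.0014 and 0.0036. Thus the direction of MYCN, MAX, MXD4, MXI1 and MNT turned with the scale, with calls both ways for MAX and MNT. In contrast MXD3 and MGA were positive, and MYCL and MXD1 were negative, on all 3, each read by its brightest probe set. MGA did not pass on either relative scale, at 0.05 and 0.0045. Read by arrays alone, both shBORIS arrays lay above both shLUC arrays for 6 of the 9 members as deposited and below them for 0, where 83.8% of all genes tested lay above and 6.65% below. Against the median gene 1 lay above and 7 below, where 40.4% of all genes lay above and 39% below. MYC, the remaining member, lay below the brightness limit and is not among these counts. With 2 arrays in each group, exact permutation could reach no two-sided p under 0.333, so the p-values lean on the spread limma estimates from all genes together.

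**Figure D1:**
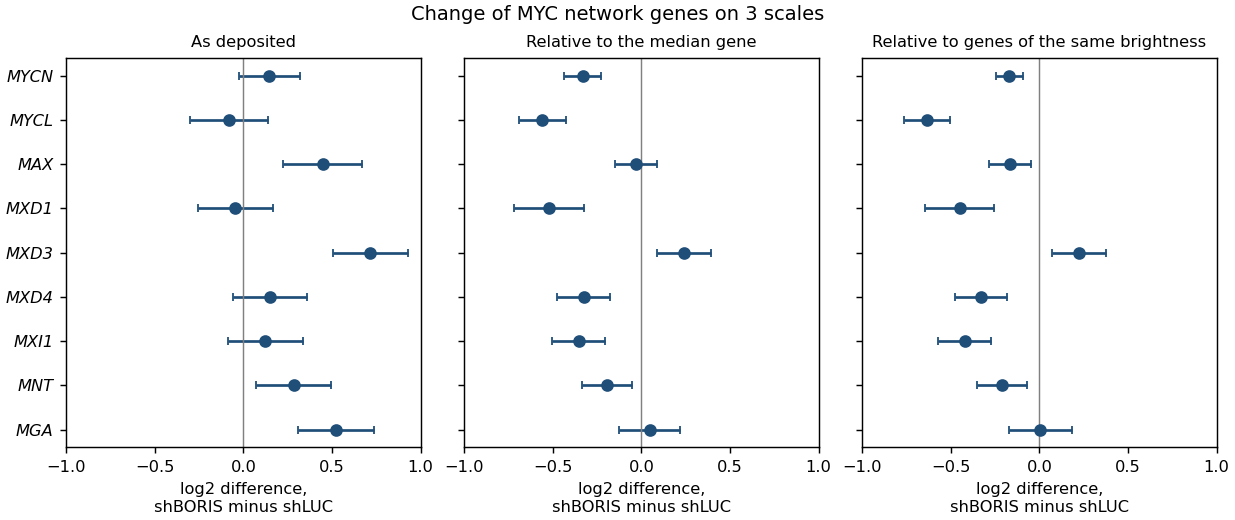
Log2 difference, shBORIS minus shLUC, of the 9 members tested on 3 scales; points are limma estimates from 2 arrays a group and bars their 95% intervals. The estimates lie between -0.08 and 0.72 as deposited, between -0.56 and 0.24 against the median gene, and between -0.63 and 0.22 against genes of like brightness.

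MYCN, the amplified activator, was slightly brighter on the shBORIS arrays, by less than most genes. Its brightest probe set (11750948_a_at) had intensities of 5727 and 6041 on the shBORIS arrays, against 5347 and 5280 on the shLUC arrays. Both shBORIS arrays were higher, and the means were 5884 ± 222 for shBORIS and 5313 ± 47.5 for shLUC (SD, n = 2 each). The difference of 0.15 as deposited did not pass the test (95% interval -0.03 to 0.32; limma adjusted p = 0.11). It did pass as the mean of the MYCN probe sets, at 0.22 (adjusted p = 0.017), and without the first shBORIS array, at 0.18 (adjusted p = 0.0158). MYCN fell by 0.33 against the median gene (SE 0.05; limma adjusted p = 1.92e-04). Against genes of like brightness it fell by 0.17 (SE 0.03; limma adjusted p = 0.00263), a change of 0.889-fold. As a description, among the 500 genes tested nearest to it in level, whose median difference was 0.36 as deposited, MYCN exceeded 18%.

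The other 3 MYCN probe sets gave larger differences as deposited or more spread. Probe set 11719869_a_at had 5710 and 5169 on the shBORIS arrays, against 4897 and 4148 on the shLUC arrays, and rose by 0.27 as deposited (limma adjusted p = 0.00917 over all probe sets). Probe set 11719868_a_at had 2210 and 2489 on the shBORIS arrays, against 1848 and 1917 on the shLUC arrays, and rose by 0.32 as deposited (limma adjusted p = 0.00359). The arrays overlapped only for 11719870_s_at among the MYCN probe sets, with 5297 and 5892 on the shBORIS arrays against 5641 and 4476 on the shLUC arrays. Thus MYCN passed as higher on 2 of its 4 probe sets as deposited, and on none as lower. Against probe sets of like brightness the 4 values ran from -0.23 to -0.12, and 3 of them fell. Against the median probe set only 1 of the 4 fell. The probe set fit takes all 49293 cellular probe sets as its base, so its relative values differ somewhat from those of the gene fit.

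MYCL showed the lowest value of the members tested on all 3 scales when genes were read by their brightest probe sets. Its intensities were 321 and 353 on the shBORIS arrays, against 373 and 342 on the shLUC arrays, so the groups overlapped. The difference was -0.08 as deposited (95% interval -0.30 to 0.14; limma adjusted p = 0.498). MYCL fell by 0.56 against the median gene (SE 0.06; limma adjusted p = 2.89e-05) and by 0.63 against genes of like brightness (SE 0.06; limma adjusted p = 3.6e-05). Of the 500 genes nearest in level, 6.8% lay below it. The 3 dimmer probe sets of MYCL differed by 0.06, 0.07 and 0.24 as deposited, and 2 of them fell against probe sets of like brightness. The dimmest, 11737463_at, was higher on both shBORIS arrays (79.5 and 85.4 against 72.8 and 61.8 on the shLUC arrays) and did not pass on any of the 3 scales. As the mean of probe sets MYCL read 0.07 as deposited, above MXI1 at -0.04 and MXD1 at 0.05. Against the median gene it then read -0.36, above MXI1 at -0.47 and MXD1 at -0.38.

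MYC itself was hardly measured. Its only probe set of its own (11745021_a_at) had 12.0 and 17.4 on the shBORIS arrays, against 16.1 and 19.1 on the shLUC arrays, and the groups overlapped. The array's own background probe sets had medians of 16.7 and 16.9 on the shBORIS arrays, against 15.4 and 16.7 on the shLUC arrays, so MYC had no reading clear of background and no change is given for it. The brightness limit for testing was an intensity of 62.2.

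**Figure D2:**
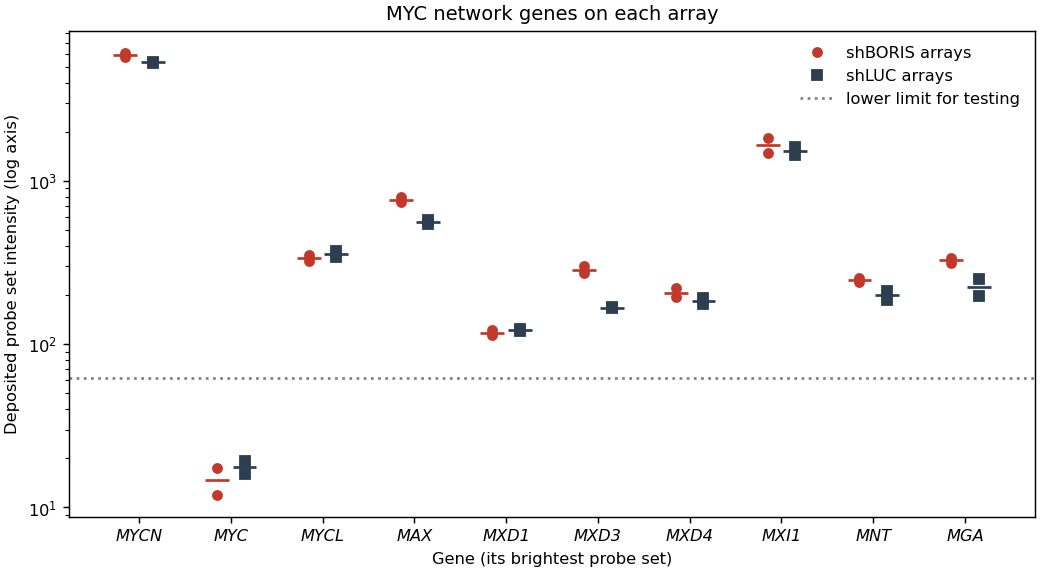
Deposited intensity (log axis) of each member's brightest probe set on each array; red circles are the 2 shBORIS arrays, dark squares the 2 shLUC arrays, and short lines their means. MYCN lies between 5280 and 6041 on the 4 arrays and MYC between 12.0 and 19.1, under the dotted limit for testing of 62.2; levels of different genes come from different probes and are not compared.

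MAX, the partner of every other member, rose on the deposited scale in step with most genes. Its intensities were 739.7 and 796 on the shBORIS arrays, against 572 and 544 on the shLUC arrays, with no overlap. It rose by 0.45 as deposited (SE 0.11; limma adjusted p = 1.43e-04). It differed by -0.03 against the median gene (95% interval -0.15 to 0.09; limma adjusted p = 0.665), but by -0.17 as the mean of its probe sets (adjusted p = 0.0174). Against genes of like brightness MAX fell by 0.17 (SE 0.05; limma adjusted p = 0.0244), a call lost without either shBORIS array (adjusted p = 0.134 without replicate 1 and 0.132 without replicate 2) or without shLUC replicate 2 (adjusted p = 0.0627). All 8 MAX probe sets above the brightness limit were higher on both shBORIS arrays and rose as deposited, by 0.37 to 0.46. Of all 49293 cellular probe sets, dim ones included, 33146 were higher on both and 51.8% rose. Against probe sets of like brightness none of the 12 MAX probe sets passed. The 4 dim probe sets, with means from 22.9 to 36.1, differed by -0.18 to 0.11 as deposited and did not pass, and 3 of them fell against the median probe set (limma adjusted p = 0.008, 0.00535 and 0.00258).

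The antagonists of MYC split, with MXD3 up and the rest down on the relative scales. MXD3, whose transcript is known to be tied to proliferating cells in other tissues, had 272 and 299 on the shBORIS arrays, against 166 and 168 on the shLUC arrays. It rose by 0.72 as deposited (SE 0.11; limma adjusted p = 1.27e-10), or 1.64-fold, the largest rise among the brightest probe sets of the members; as the mean of probe sets it read 0.43, below 0.57 for MGA. It also rose against the median gene by 0.24 (SE 0.07; limma adjusted p = 0.0125) and against genes of like brightness by 0.22 (SE 0.07; limma adjusted p = 0.0198). The relative calls are fragile. The first did not hold without shBORIS replicate 2 (adjusted p = 0.0534) nor without the first shLUC array (adjusted p = 0.0769), and as the mean of its 3 probe sets MXD3 read -0.0087 against the median gene. The second did not hold without the first or second shBORIS array or the first shLUC array (adjusted p = 0.0614, 0.0912 and 0.123). The other probe sets of MXD3 lay just below or far below the brightness limit and were higher on both shBORIS arrays, by 0.35 and 0.22 as deposited. In the fit over all probe sets, the brightest MXD3 probe set differed by 0.18 against probe sets of like brightness and did not pass (limma adjusted p = 0.0842).

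MXD1 and MXI1 overlapped between the groups as deposited and fell on both relative scales. MXD1 had 122 and 113 on the shBORIS arrays, against 120.5 and 123 on the shLUC arrays, and the groups overlapped. It differed by -0.05 as deposited (95% interval -0.26 to 0.17; limma adjusted p = 0.701) and fell by 0.52 against the median gene (SE 0.09; limma adjusted p = 6.03e-04) and by 0.45 against genes of like brightness (SE 0.09; limma adjusted p = 0.00209). Its other probe set was dim, at a mean of 33.4, and did not pass on any scale. MXI1, also called MXD2, had 1491 and 1840.1 on the shBORIS arrays, against 1602 and 1441 on the shLUC arrays, again with overlap. It differed by 0.12 as deposited (95% interval -0.09 to 0.33; limma adjusted p = 0.277), passing as higher without the first shBORIS array (0.27, adjusted p = 0.0367), and fell by 0.35 against the median gene (SE 0.07; limma adjusted p = 0.00132) and by 0.42 against genes of like brightness (SE 0.07; limma adjusted p = 6.74e-04). Of the 500 genes nearest in level, 8% lay below MXI1 and 12.6% of those nearest to MXD1 lay below MXD1. All 5 MXI1 probe sets fell against probe sets of like brightness, by 0.40 to 0.61. As deposited 3 of the 5 were lower on both shBORIS arrays (3718 of all 49293 cellular probe sets were), and none of the 5 passed. For 11739743_a_at, the lowest MXI1 probe set, the values were 93.5 and 107 on the shBORIS arrays against 112 and 119 on the shLUC arrays.

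MXD4 and MNT, the members found with an E-box in the promoter window, were slightly brighter on the shBORIS arrays. MXD4 had 194 and 219.9 on the shBORIS arrays, against 193 and 176 on the shLUC arrays. The difference of 0.15 as deposited did not pass (95% interval -0.06 to 0.36; limma adjusted p = 0.179), and MXD4 fell by 0.33 against the median gene (SE 0.07; limma adjusted p = 0.0019) and by 0.33 against genes of like brightness (SE 0.06; limma adjusted p = 0.00236). Of its 5 probe sets 4 fell against probe sets of like brightness, by 0.26 to 0.57, and the dimmest read -0.03. Against the median probe set only 1 of the 5 fell. MNT, a broadly expressed repressor that also pairs with MLX, had 239.5 and 254 on the shBORIS arrays, against 212 and 188 on the shLUC arrays. It rose by 0.29 as deposited (SE 0.11; limma adjusted p = 0.011) and fell by 0.19 against the median gene (SE 0.06; limma adjusted p = 0.0246) and by 0.21 against genes of like brightness (SE 0.06; limma adjusted p = 0.0179). These MNT calls are near the threshold, and against the median probe set neither of its 2 probe sets passed. The rise as deposited did not hold without shBORIS replicate 2 (adjusted p = 0.0955) nor without the second shLUC array (adjusted p = 0.158). The fall against the median gene did not hold without the first or second shBORIS array or the first shLUC array (adjusted p = 0.0726, 0.0883 and 0.106), and that against genes of like brightness without the same arrays (adjusted p = 0.0641, 0.0792 and 0.0905).

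MGA moved with the general shift. Its brightest probe set had 313 and 339 on the shBORIS arrays, against 249 and 197 on the shLUC arrays, and rose by 0.52 as deposited (SE 0.11; limma adjusted p = 3.49e-06). The difference was 0.05 against the median gene (95% interval -0.12 to 0.22; limma adjusted p = 0.619; 0.14 and 0.0473 as the mean of probe sets), and against genes of like brightness 0.0045 (limma adjusted p = 0.965). A nearly as bright probe set, 11758283_s_at, gave a larger change. It had 330.3 and 340 on the shBORIS arrays against 192 and 177 on the shLUC arrays, rose by 0.81 as deposited and by 0.25 against probe sets of like brightness (limma adjusted p = 0.0132), and was the single probe set of the network to rise on that scale. The third MGA probe set was dimmer, with a mean of 68.3, and did not pass on that scale.

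Over all 41 probe sets, 18 rose and 0 fell as deposited, where 51.8% of all cellular probe sets rose and 3.22% fell. Against probe sets of like brightness 1 rose and 17 fell, where 14.2% rose and 15.9% fell. The falls came from MYCN (3 of 4 probe sets), MYCL (3 of 4), MXD1 (1 of 2), MXD4 (4 of 5), MXI1 (5 of 5) and MNT (1 of 2). Against the median probe set 2 of the 41 rose and 14 fell, and the share over all probe sets was not counted there. Probe sets of 1 gene share its transcripts and are not independent.

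**Figure D3:**
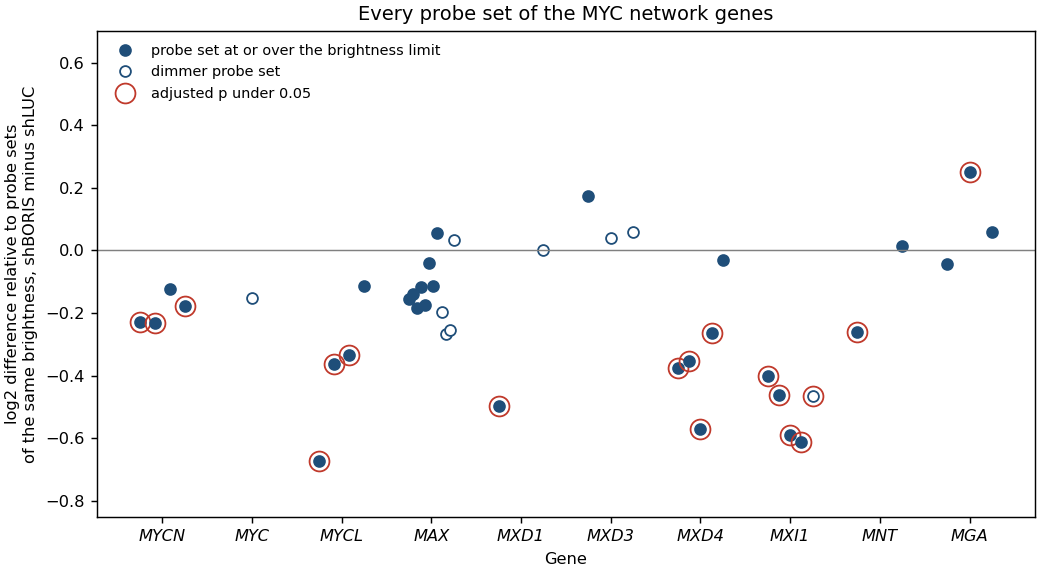
Log2 difference against probe sets of like brightness, shBORIS minus shLUC, of all 41 probe sets; filled points are at or above the brightness limit, open points below it, and red rings mark limma adjusted p under 0.05. The values run from -0.67 for a MYCL probe set to 0.25 for an MGA probe set, and all 5 MXI1 probe sets lie below 0.

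Differences between members within an array are unaffected by a constant factor per array, though not by a scaling that depends on brightness. Set against MYCN on the same array, on the deposited log2 scale, MXD3 was higher on both shBORIS arrays by a mean of 0.57, MGA by 0.38, MAX by 0.30 and MNT by 0.14. MYCL and MXD1 were lower on both shBORIS arrays than on both shLUC arrays, by 0.23 and 0.19 (log2 differences of -0.23 and -0.19). For MXD4 and MXI1 the arrays overlapped, with mean differences of 0.01 and -0.02 from MYCN. After the fit to genes of like brightness the same contrasts with MYCN were 0.39 for MXD3, 0.17 for MGA and 0.0035 for MAX, and MNT turned to -0.042. They were -0.46 for MYCL, -0.28 for MXD1, -0.25 for MXI1 and -0.16 for MXD4. These contrasts are described without a test, and on both scales MXD3 and MGA were higher than MYCN in their change, and MYCL and MXD1 lower.

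**Figure D4:**
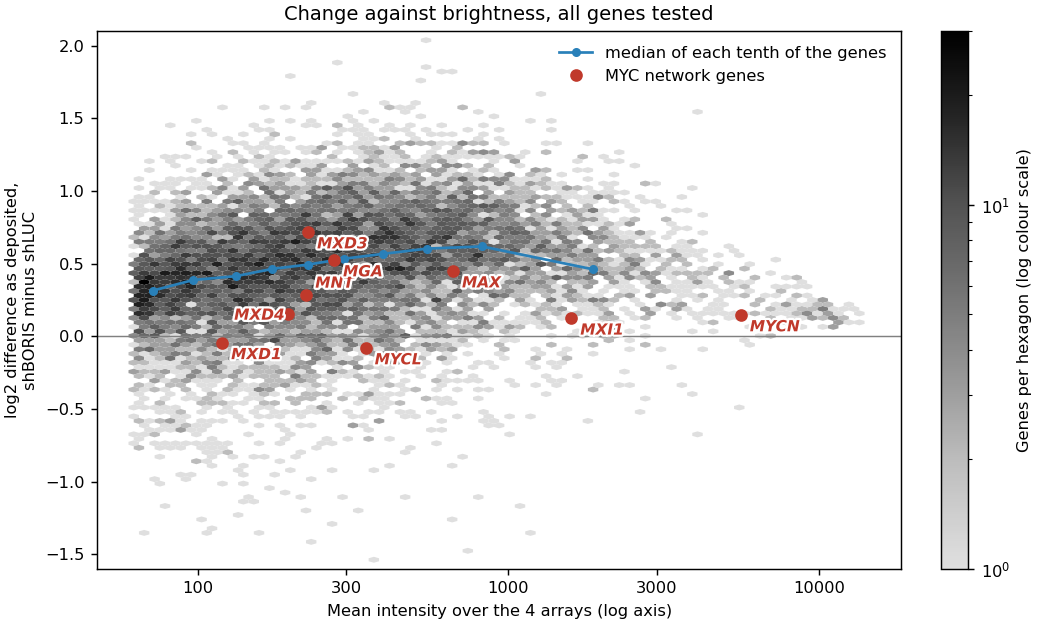
Log2 difference as deposited, shBORIS minus shLUC, against mean intensity over the 4 arrays (log axis); grey hexagons are all genes tested (15 lie outside the axis), the blue line the median of each decile and red points the members. The blue line runs from 0.32 in the dimmest decile to 0.62 in decile 9 and ends at 0.46 in the brightest decile. MXD3 at 0.72 lies above it and MGA at 0.52 beside it. MYCN at 0.15 lies to the right of its end and lower than that end, and the other members lie below the line.

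The parallel network of MLX, which MNT, MXD1 and MXD4 can join, was read through 5 genes, of which TXNIP and ARRDC4 rose and MLX fell against the median gene. MLX pairs with the glucose-sensing factors MondoA (MLXIP) and ChREBP (MLXIPL), and TXNIP and ARRDC4 are known targets of such dimers. MLX had 723 and 872 on the shBORIS arrays, against 646 and 637 on the shLUC arrays, rose by 0.30 as deposited and fell by 0.18 against the median gene (limma adjusted p = 0.0454). That fall did not hold without the first shBORIS array (adjusted p = 0.359) nor without the second shLUC array (adjusted p = 0.171), while 5 of its 6 probe sets fell against probe sets of like brightness. MLXIP and MLXIPL differed by 0.02 and 0.03 against the median gene, neither passing (limma adjusted p = 0.757 and 0.773). The arrestin-like gene ARRDC4 had 112 and 126 on the shBORIS arrays, against 47.8 and 38.8 on the shLUC arrays, and rose by 0.71 against the median gene (SE 0.09; limma adjusted p = 7.74e-05); its shLUC values lie under the limit for testing, so it was tested only through its shBORIS values and the size is approximate. TXNIP, which inhibits thioredoxin, had 2087 and 2201 on the shBORIS arrays, against 151 and 152 on the shLUC arrays, and rose by 3.21 against the median gene (SE 0.06; limma adjusted p = 7.89e-10). The list was chosen with this rise known. As deposited all 5 genes of the arm rose, where 77.2% of all genes did. Against the median gene 2 rose and 1 fell, where 30.3% and 28.8% of all genes did.

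Of the corepressor genes used by the MXD proteins and MNT, SIN3A fell against the median gene and others rose. Of 13 tested genes of the SIN3 and histone deacetylase complex, 7 rose and 1 fell against the median gene (30.3% and 28.8% of all genes), with a list median of 0.18, and 2 fell without the first shLUC array. As deposited 12 rose and 0 fell, where 77.2% and 4.64% of all genes did. SAP30 and ING1, named after their values were seen, lay lower on both shBORIS arrays against the median gene without passing, at -0.10 and -0.15, and SAP30 fell by 0.23 against genes of like brightness (limma adjusted p = 0.00617). SIN3A, the scaffold that MXD proteins bind, had 281 and 314 on the shBORIS arrays, against 353 and 322 on the shLUC arrays, and fell by 0.65 against the median gene (SE 0.06; limma adjusted p = 1.29e-05) but read -0.17 as deposited. The deacetylase HDAC1 rose by 0.33, the histone-binding subunit RBBP7 by 0.60 and the complex member ARID4B by 0.61 against the median gene. Among partners of MGA and MAX in the Polycomb complex PRC1.6, 8 of 12 rose and 1 fell against the median gene (66.7% and 8.33%, where 30.3% and 28.8% of all genes did), with a median of 0.22. PCGF6, which defines that complex, rose by 0.47 and the heterochromatin protein CBX3 by 0.49, while TFDP2 fell by 0.18 but, averaged over its probe sets, read 0.000322, and 0 of the 12 fell without the first shBORIS array. Of these genes HDAC1, HDAC2 and WDR5 also stand in another list here.

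Cofactors through which MYC proteins activate genes went both ways. Of 18 tested, 8 rose and 4 fell against the median gene (44.4% and 22.2%, where 30.3% and 28.8% of all genes did), with a median of 0.13. As deposited 16 rose and 1 fell (88.9% and 5.56%, where 77.2% and 4.64% of all genes did). The elongation factor PAF1 rose by 0.55, the acetyltransferase CREBBP by 0.53 and the remodeller subunit BPTF by 0.49. The acetyltransferase KAT2B had 75.7 and 71.3 on the shBORIS arrays, against 147 and 119 on the shLUC arrays, and fell by 1.21 against the median gene and by 0.73 as deposited. Also below were the transcription kinase CDK9 and the helicases RUVBL1 and RUVBL2, picked out here once their values were known, at -0.39, -0.15 and -0.19 against the median gene. Without the first shBORIS array 2 of the cofactors fell.

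Most tested genes that act on the stability of MYC proteins rose against the median gene. Of 15 tested, 12 rose and 1 fell (80% and 6.67%, where 30.3% and 28.8% of all genes did), with a median of 0.29. As deposited all 15 rose, where 77.2% of all genes did. BTRC, a ubiquitin ligase subunit, rose by 0.58 against the median gene. CIP2A, an inhibitor of the phosphatase that destabilises MYC, had 179 and 210.4 on the shBORIS arrays, against 48.8 and 60.5 on the shLUC arrays, and rose by 1.10 against the median gene (SE 0.11; limma adjusted p = 2.17e-05); both its shLUC values lie under the limit for testing, so it was tested only through its shBORIS values and the size is approximate. AURKA, a mitotic kinase that shields N-Myc from degradation, had 2707 and 2915 on the shBORIS arrays, against 1369 and 1324 on the shLUC arrays, and rose by 0.58. The mitotic kinase PLK1 rose by 0.41, while the ligase STUB1 fell by 0.23. The list holds genes of both directions of action, and AURKA and PLK1 are also cell cycle genes. FBXW7, the ligase subunit best known for degrading MYC proteins, is named though the rule does not pick it, and rose by 0.31.

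Transcripts known as MYC targets went both ways. Of 45 tested genes that MYC proteins are known to activate, 16 rose and 11 fell against the median gene (35.6% and 24.4%, against 30.3% and 28.8% of all genes), with a median of 0.06. The nucleolar protein NCL had 3261 and 3443 on the shBORIS arrays, against 4491 and 4322 on the shLUC arrays, and fell by 0.87 against the median gene (SE 0.05; limma adjusted p = 5.44e-07) and by 0.39 as deposited. The transferrin receptor TFRC fell by 0.63, the helicase EIF4A1 by 0.41 and lactate dehydrogenase LDHA by 0.33 against the median gene, while as the mean of its probe sets EIF4A1 read 0.031. The counts for this list moved with the setting: 6 fell without the first shBORIS array, 24 rose and 5 fell when dim genes were kept, 22 rose and 7 fell over averaged probe sets, and 26 rose and 5 fell with the median taken over all cellular probe sets. At the other end, the nucleolar protein NOP58 rose by 0.40.

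Of 14 tested genes that MYC proteins are known to repress, 3 rose and 11 fell against the median gene (21.4% and 78.6%, where 30.3% and 28.8% of all genes did), with a median of -0.73. As deposited 5 rose and 7 fell (35.7% and 50%, where 77.2% and 4.64% of all genes did), with a median of -0.26. Transglutaminase TGM2 had 83.2 and 83.9 on the shBORIS arrays, against 211 and 187 on the shLUC arrays, and fell by 1.59 against the median gene (SE 0.07; limma adjusted p = 3.63e-07). The cell cycle inhibitor CDKN1C fell by 1.22, the stress gene GADD45A by 1.05 and the secreted chaperone CLU by 0.79. CDKN1B, the cell cycle inhibitor p27, went the other way, with 854 and 825 on the shBORIS arrays, against 368 and 347 on the shLUC arrays, and rose by 0.72 (SE 0.06; limma adjusted p = 9.05e-06). The other 2 that rose, chosen once their values were known, were KLF11 at 0.50 and ITGB1 at 0.33. Both target lists were chosen with results of these data known, and several of the repressed genes also belong to stress and mesenchymal programmes.

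**Figure D5:**
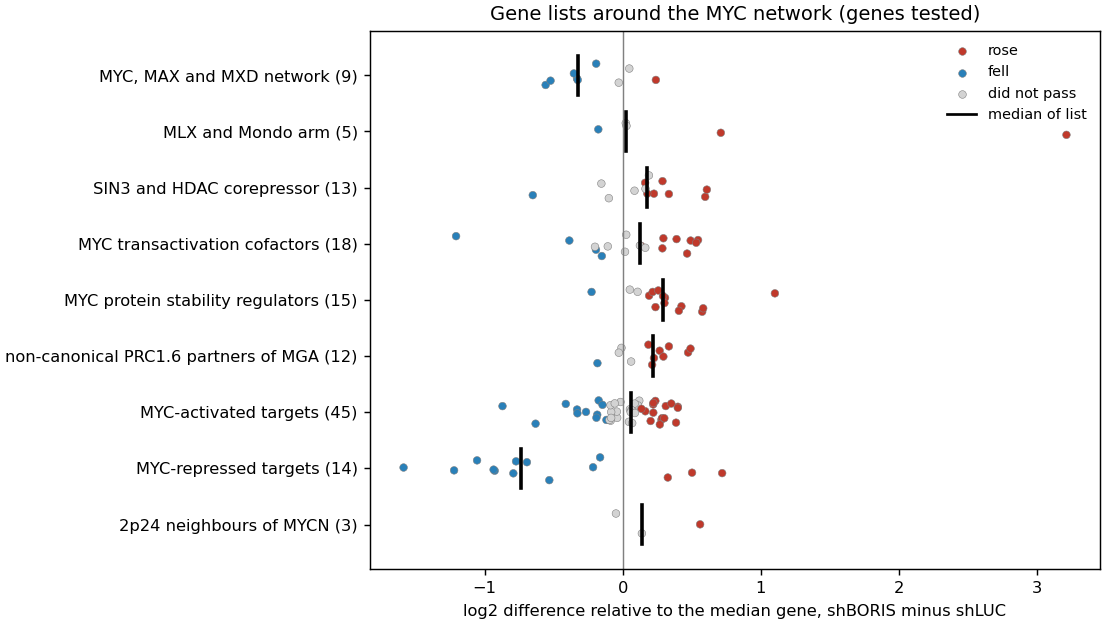
Log2 difference against the median gene, shBORIS minus shLUC, of every gene tested in 9 lists around the network; red points rose, blue points fell, grey points did not pass, black bars are list medians and the number tested stands beside each name. The median is -0.33 for the network itself and -0.73 for MYC-repressed targets, while the medians of the other 7 lists lie between 0.03 and 0.29.

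Genes with the network's own site in a promoter rose and fell in nearly the same shares as those without it. Among the 1046 genes tested with CACGTG in a promoter window, 32.8% rose and 27.2% fell against the median gene, with a median of 0.03, and among the 8008 without it 31.1% rose and 28.4% fell, with a median of 0.01. A match is a description of letters and not a bound site.

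Of the genes beside MYCN, DDX1 rose on all 3 scales, and NBAS and CYRIA rose as deposited. DDX1, an RNA helicase gene often amplified along with MYCN in neuroblastoma, had 1533 and 1685 on the shBORIS arrays, against 808 and 743 on the shLUC arrays, and rose by 0.56 against the median gene (SE 0.05; limma adjusted p = 1.14e-05). NBAS and CYRIA rose by 0.43 and 0.62 as deposited but did not pass against the median gene, at -0.05 and 0.14 (limma adjusted p = 0.463 and 0.0991), and NBAS fell by 0.17 against genes of like brightness (limma adjusted p = 0.0196). Set against MYCN on the same array, DDX1 was higher on both shBORIS arrays by a mean of 0.89, CYRIA by 0.47 and NBAS by 0.28 as deposited, and after the fit to genes of like brightness the contrasts were 0.62, 0.25 and -0.0027. Whether any of these genes shares the amplified segment in this line is not stated in the labels. The genes whose 4 deposited log2 values, each minus its own mean, lay nearest to those of MYCN were NDUFB4, DNAJB5 and TMEM120B (Euclidean distances of 0.0046, 0.0056 and 0.014); over 4 arrays such likeness says little.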

How the data were processed

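Affymetrix PrimeView arrays carried biotin-labelled RNA made from 100 ng of total RNA with ERCC spike-ins, per the labels' protocols. The authors deposited linear intensity values, with a column for each array. The submitters' processing notes name MAS5, affy and R 3.1.3, with no roles. Of 49293 cellular probe sets 45278 carried 1 gene symbol, updated through RefSeq (GRCh38.p14). A gene was read by its brightest probe set, and genes with a mean intensity at or above the 40th percentile (62.2) were tested.

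Values were log2(intensity + 16), which understates changes of dim genes. The difference between hairpins was fitted with an intensity trend (limma 3.58.1, R 4.3.3) at 2 residual degrees of freedom, on deposited values, after centring arrays on the median of the genes tested, and after cyclic loess with span 0.7. Two-sided p-values were adjusted over all genes tested by Benjamini-Hochberg, and "rose" and "fell" mean below 0.05. On deposited values the prior had infinite degrees of freedom, so the smallest p-values are not literal. Probe sets were fitted likewise over all cellular ones, unfiltered. The code was tested on simulated data. The number of arrays limits precision, and p-values measure the spread between duplicates, on deposited values only as pooled over genes of like level.

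Members and lists were chosen with earlier results of these data known. Besides the members and CTCFL, the text names from each list up to 4 genes with the smallest adjusted p against the median gene and the genes at both ends of its range, and every tested gene of the MLX list and of the neighbours of MYCN; by the same rule 3 genes nearest to MYCN in pattern are named. Arrays numbered 1 and 2 were not treated as pairs in the main fit. Differences between replicates correlated at 0.098 between the groups over 10946 genes, which with 2 arrays a group cannot decide on pairing. Alternatives were other pseudocounts, filters, probe set summaries and normalizations, each array left out, and a replicate block.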

Additional observations from a re-analysis of the deposited data

Results flagged for a closer look

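The hybridisation control probe sets, which take no part in the comparisons of genes, carried a difference between the groups. All 18 were brighter on both shBORIS arrays, and their median log2 difference, shBORIS minus shLUC, was 0.49, beside 0.48 for the median gene tested and -0.0018 for the 100 ERCC probe sets. The labelling controls (dap, lys, phe and thr) had a median difference of 0.20 over 24 probe sets, 13 of which were brighter on both shBORIS arrays. No label states how much of each control was added.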

How the results depend on the processing

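With each array centred on its hybridisation controls, an alternative chosen after seeing the data, 0 members rose and 6 fell, 2528 genes rose and 3375 fell, and MYCN read -0.38, MAX -0.076, MXD4 -0.37, MXI1 -0.40 and MNT -0.24; by construction this sets another zero. Against the median gene, the single member that rose became 0 when only genes above the 60th percentile were tested and 0 to 1 without each array in turn. Against genes of like brightness it became 0 with the mean of probe sets and 0 to 1 without each array. As the mean of probe sets MXD3 read -0.0087 against the median gene. Testing only genes above the 60th percentile, and thus fewer of them, left 273 lower as deposited and 2202 higher against the median gene. Against the median gene 5053 fell with no filter, and with the median taken over all cellular probe sets 5012 rose and 1908 fell. As deposited 3 to 6 members rose without each array in turn. With a replicate block 3 members rose as deposited, MNT not passing (limma adjusted p = 0.0713), and 1 rose and 6 fell against the median gene. MYCN, MYCL, MXD4 and MXI1 fell against the median gene and against genes of like brightness in all 14 settings run, and MXD1 in the 13 that tested it. With 2 arrays a group, small changes of dim genes were not detectable.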
